A study of Mus musculus with 24 samples.

Results

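DNA methylation genes that write, copy, erase or read the mark, 9 of the 37991 genes in the count table, were followed through mammary tumor development in mice. They were picked by symbol: Dnmt1, Uhrf1 and Hells for the copying of methylation at replication, Dnmt3a and Dnmt3b for new methylation, Tet1, Tet2 and Tet3 for its removal, and Mbd2 for its reading. RNA came from frozen mammary tissue, hyperplastic to malignant, of PyMT females and from normal mammary glands of FVB females, with 3 samples of either genotype at weeks 6, 8, 10 and 12, or 24 libraries in 8 groups. PyMT mice were heterozygous for an MMTV-PyVT transgene on the FVB background, in which the MMTV promoter drives the polyoma virus middle T antigen in mammary epithelium, and FVB mice lacked the transgene. Week 6 was taken by the study as hyperplasia, week 8 as adenoma/MIN, week 10 as early carcinoma and week 12 as late carcinoma. The comparisons asked at which stage the tumor tissue differed from the gland of the same age, and whether the difference changed over the stages.

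In mammals most methylation sits on the cytosine of CpG, and the mark has to be copied onto the new strand each time a cell replicates its DNA. UHRF1 binds the half-methylated CpG behind the replication fork, DNMT1 then methylates the new strand, and HELLS is a chromatin remodeler needed for methylation of packed DNA. DNMT3A and DNMT3B set methylation on sites that did not carry it, the TET enzymes oxidize methylcytosine on the way to its removal, and MBD2 binds methylated CpG and recruits the NuRD repressor complex. Genes of the copying machinery are expressed mainly in dividing cells, and E2F transcription factors are known to drive many genes of S phase.

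By the study's account the 3 samples of a group came from separate mice, although the labels give only a number for each. Total counts ran from 6969375 to 13516601 per library, and values below are counts divided by DESeq2 size factors, called normalized counts, unless another scale is named. In 13 libraries, 6 of PyMT and 7 of FVB, low counts came in packets of 8 to 25, so the spread of low values is wider there than read numbers alone would give. The cell make-up of the tissues differed with genotype. The summed adipocyte markers (8 genes) lay between 54630 and 163000 in FVB and between 1371 and 18640 in PyMT, and over all weeks 8 of 8 were lower in PyMT, as were 8 of 8 endothelial and 8 of 8 fibroblast markers. The summed luminal epithelium markers lay between 4066 and 19530 in FVB and between 19350 and 37620 in PyMT, with 6 of 8 higher and 1 lower, whereas 5 of 8 basal markers were lower in PyMT. Of the macrophage markers 1 of 8 was higher and 2 were lower. Skeletal muscle markers summed to between 81.9 and 538500 in FVB and to at most 30410 in PyMT, and T and B lymphocyte markers to at most 117.3 in any library. These markers move with every PyMT against FVB difference below, and their part in it was not tested. In such bulk tissue, fewer cells of a type and less RNA per cell cannot be told apart.

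Per kilobase of exon, with the exons of all annotated transcripts of a gene merged, Dnmt1 led in both genotypes. Levels set between genes depend on these lengths, which ran from 3214 bases for Mbd2 to 16642 for Dnmt3a. Its normalized count per kilobase was 525 ± 69.8 (SD, n = 12) in PyMT and 218 ± 86.1 (SD, n = 12) in FVB. In FVB the next levels per kilobase were Mbd2 with 176 ± 28.1, Tet3 with 123 ± 22.7 and Tet2 with 106 ± 20.4 (SD, n = 12). In PyMT, Uhrf1 was next with 207 ± 52.6 per kilobase, against 56.5 ± 52.7 in FVB (SD, n = 12 each). Dnmt3b, Tet1 and Hells were the 3 lowest genes in FVB, at 17.8, 20.7 and 31.8 per kilobase. The 3 genes of maintenance passed the all-weeks test as higher in PyMT and none of the 9 as lower, against 23.6% of the 14918 genes tested called higher and 27.5% lower (edgeR adjusted p under 0.05). Groups without overlap were frequent among all genes: PyMT lay above FVB in 16.2%, 18.4%, 18.9% and 21.5% of them from the earliest to the latest week, and below it in 20.4%, 21.7%, 21.6% and 25.2%.

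**Figure D1:**
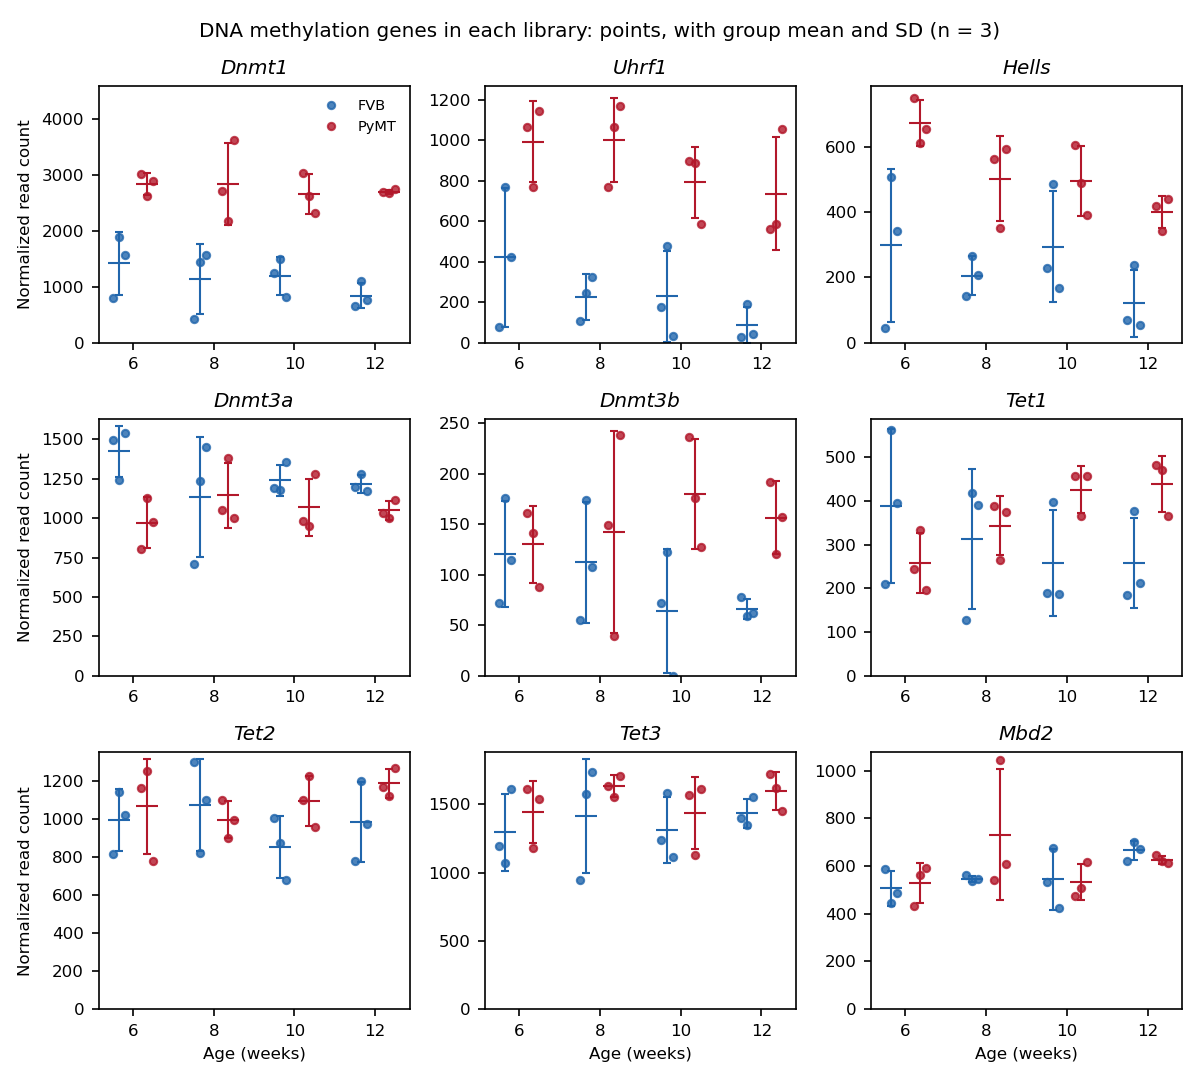
Normalized read count (vertical axis, from 0) of each of the 9 genes against age in weeks, with FVB libraries in blue and PyMT libraries in red. Each point is 1 library, and dashes with bars are group means and SD of 3 libraries (bars that would pass below 0 are clipped there). All 12 PyMT points of Dnmt1 lie above all 12 FVB points, whereas those of Tet2 and Tet3 overlap at every week.

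Before the values, 1 promoter window of each gene that passed a test is shown. The genes were chosen because they passed. For Dnmt1 and Uhrf1, which have more than 1 window, the window shown is the one with the E2F letters given below. Binding of E2F was not measured. RefSeq windows on GRCm38.p6, from 250 bases before to 50 after a start site, were read for 8 of the genes, which gave 13 windows. The E2F letters TTTCGCGC, TTTGGCGC, TTTCCCGC and TTTGCCGC were searched on both strands. They are in 744 of the 32851 promoters in the table (2.26%) and in 3 of the 13 windows, 1 each of Dnmt1 (which has 3 windows), Uhrf1 (which has 2) and Hells. The first base of a match lay 219 bases before the start and at base 34 after it in Dnmt1, 185 bases before it in Uhrf1 and 62 bases before it in Hells. The 3 windows of Dnmt3a, the window of Dnmt3b, the TET windows and the other windows of Dnmt1 and Uhrf1 hold none of these letters. The window of Dnmt3b is printed as 1 without these letters. Capitals mark the matches. A match describes letters and not a bound site, and no match says only that these letters are not in the window.
Dnmt1 (chr9:20952574-20952873, minus strand): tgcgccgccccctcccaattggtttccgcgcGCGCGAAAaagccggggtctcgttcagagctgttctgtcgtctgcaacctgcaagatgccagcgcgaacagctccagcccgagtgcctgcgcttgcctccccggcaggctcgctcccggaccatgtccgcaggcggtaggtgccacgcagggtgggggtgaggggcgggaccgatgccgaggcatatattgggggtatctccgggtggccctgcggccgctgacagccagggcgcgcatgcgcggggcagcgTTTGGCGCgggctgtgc
Uhrf1 (chr17:56304063-56304362, plus strand): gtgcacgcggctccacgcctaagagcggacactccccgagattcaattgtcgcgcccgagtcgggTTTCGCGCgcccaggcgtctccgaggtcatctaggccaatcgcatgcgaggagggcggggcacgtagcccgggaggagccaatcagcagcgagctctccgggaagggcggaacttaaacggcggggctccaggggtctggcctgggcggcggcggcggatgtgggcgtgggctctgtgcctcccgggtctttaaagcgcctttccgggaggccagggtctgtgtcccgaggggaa
Hells (chr19:38930740-38931039, plus strand): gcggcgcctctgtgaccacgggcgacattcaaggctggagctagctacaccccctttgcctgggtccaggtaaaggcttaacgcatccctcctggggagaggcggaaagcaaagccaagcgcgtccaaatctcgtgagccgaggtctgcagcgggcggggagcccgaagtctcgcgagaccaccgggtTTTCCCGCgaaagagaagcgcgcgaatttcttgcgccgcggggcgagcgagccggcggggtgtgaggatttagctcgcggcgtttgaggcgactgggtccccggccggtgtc
Dnmt3b (chr2:153649199-153649498, plus strand): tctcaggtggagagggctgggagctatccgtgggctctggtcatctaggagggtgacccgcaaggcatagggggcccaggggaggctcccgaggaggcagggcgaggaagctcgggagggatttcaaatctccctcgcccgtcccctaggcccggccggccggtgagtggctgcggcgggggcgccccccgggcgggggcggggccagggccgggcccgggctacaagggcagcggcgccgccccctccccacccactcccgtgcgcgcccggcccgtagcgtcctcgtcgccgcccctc
The 4 windows hold 33, 33, 34 and 30 CpG dinucleotides, in this order, against a median of 7 over all promoters in the table. The windows not printed hold 2 and 12 for Dnmt1 and 12 for Uhrf1. Those of genes without a match hold 46, 47 and 18 for Dnmt3a, 17 for Tet1, 57 for Tet2 and 22 for Tet3. Each of the E2F strings itself holds a CpG, and the share with a match among promoters as rich in CpG was not computed.

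Dnmt1 (ENSMUSG00000004099), the methyltransferase of maintenance, lies on the minus strand of chromosome 9 at 20711650 to 20757317 (mm9). At week 6 its normalized count was 799, 1892 and 1569 in the FVB glands and 3017, 2632 and 2895 in the PyMT glands. At week 8 it was 420, 1437 and 1563 in FVB and 2712, 2173 and 3625 in PyMT. At week 10 the FVB values were 1251, 1492 and 822 and the PyMT values 3041, 2636 and 2332. At week 12 they were 661, 1100 and 766 in FVB and 2697, 2676 and 2745 in PyMT. The lowest PyMT library, of week 8, stood above the highest FVB library, of week 6, so the 12 and 12 libraries did not overlap, which was true in this direction of 697 of the 14918 genes tested (4.67%) and in the other of 7.22%. Over all weeks Dnmt1 was 2.48-fold higher in PyMT, with a log2 fold change of 1.31 (SE 0.18, 95% confidence interval 0.94 to 1.68, edgeR quasi-likelihood test, adjusted p = 1.74e-06). The difference passed the test at week 12, where it was 3.32-fold (log2 1.73, SE 0.22, edgeR adjusted p = 0.000995), and at week 10, where it was 2.32-fold (log2 1.22, SE 0.26, edgeR adjusted p = 0.0159). At weeks 6 and 8 the log2 differences were 1.00 and 1.34, with edgeR adjusted p = 0.0688 and 0.108. Of 16 alternatives, 6 called Dnmt1 at week 6 and 6 at week 8. DESeq2 was among them at both weeks (Wald test, adjusted p = 0.00658 and 0.0254). The week 10 call was lost without FVB replicate 1 (adjusted p = 0.05), PyMT replicate 1 (0.0705) or PyMT replicate 2 (0.0527) in the same edgeR test.

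Uhrf1 (ENSMUSG00000001228), which guides DNMT1 to half-methylated CpG, lies on the plus strand of chromosome 17 at 56442744 to 56462909 (mm9) and had the largest fold difference of the 9 genes over all weeks. The FVB normalized counts were 76.5, 767 and 421 at week 6, where the PyMT counts were 1066, 769 and 1147. At week 8 they were 105, 247 and 326 in FVB and 771, 1066 and 1169 in PyMT. At week 10 FVB had 175, 478 and 34.4 and PyMT had 899, 890 and 588. At week 12 FVB had 28.2, 189 and 40.5 and PyMT had 563, 586 and 1059. The groups did not overlap at any of the 4 weeks, although at week 6 the highest FVB library (767) nearly reached the lowest PyMT library (769), and 11 of 12 FVB libraries lay below the lowest PyMT library of any week. In FVB the highest library was 27.2 times the lowest, and in PyMT 2.07 times. Over all weeks Uhrf1 was 4.17-fold higher in PyMT, with a log2 fold change of 2.06 (SE 0.39, 95% confidence interval 1.26 to 2.86, edgeR adjusted p = 9.55e-05). It was higher at week 12 by 8.88-fold (log2 3.15, SE 0.67, edgeR adjusted p = 0.0104) and at week 8 by 4.48-fold (log2 2.16, SE 0.40, edgeR adjusted p = 0.0162). At week 10 the log2 difference was 1.83 and at week 6 it was 1.23, with edgeR adjusted p = 0.14 and 0.261. The week 8 call was lost without FVB replicate 2 (edgeR adjusted p = 0.0617) or PyMT replicate 3 (0.0527).

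Hells (ENSMUSG00000025001), the remodeler, lies on the plus strand of chromosome 19 at 39005405 to 39045541 (mm9). Its normalized counts at week 6 were 44.0, 506 and 343 in FVB and 749, 612 and 655 in PyMT. At week 8 they were 144, 264 and 208 in FVB and 562, 352 and 593 in PyMT. At week 10 FVB had 228, 486 and 167 and PyMT had 606, 487 and 390, and at week 12 FVB had 70.0, 238 and 53.6 and PyMT had 418, 343 and 438. The groups were apart at weeks 6, 8 and 12 and overlapped at week 10, where FVB replicate 2 lay above PyMT replicate 3. Over all weeks Hells was 2.37-fold higher in PyMT, with a log2 fold change of 1.25 (SE 0.29, 95% confidence interval 0.66 to 1.84, edgeR adjusted p = 0.000765). It was 3.43-fold higher at week 12 (log2 1.78, SE 0.52, edgeR adjusted p = 0.0362) and 2.48-fold higher at week 8 (log2 1.31, SE 0.33, edgeR adjusted p = 0.0432), and the log2 differences at weeks 6 and 10 were 1.17 and 0.80 (edgeR adjusted p = 0.3 and 0.236). The week 12 call was lost without any of FVB replicates 1 and 3 and PyMT replicates 1, 2 and 3 (edgeR adjusted p = 0.0745 to 0.106). The week 8 call was lost without any of FVB replicates 1, 2 and 3 and PyMT replicates 1 and 3 (edgeR adjusted p = 0.0565 to 0.145), and at 0.132 in a fit of all 24 libraries.

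Of the other methyltransferases, Dnmt3b was higher in PyMT at week 12, and Dnmt3a passed the test at no week. Dnmt3a (ENSMUSG00000020661, plus strand of chromosome 12 at 3806007 to 3914443, mm9) shares 133 exon bases (0.799% of its own) with the antisense gene Gm10485, and the strand setting of the counting was not given in the sources used here. Its normalized counts at week 6 were 1493, 1239 and 1537 in FVB and 807, 1129 and 974 in PyMT, with the PyMT libraries below the FVB libraries. At week 12 they were 1200, 1280 and 1174 in FVB and 1030, 1004 and 1117 in PyMT, again without overlap, and at weeks 8 and 10 the groups overlapped, with values of 710 to 1450 in FVB and 952 to 1382 in PyMT. The log2 difference was -0.56 at week 6 (SE 0.19, edgeR adjusted p = 0.0941) and -0.23 over all weeks (SE 0.10, 95% confidence interval -0.44 to -0.01, edgeR adjusted p = 0.0745), and scaled by library size alone, which moves the median of all genes by 0.29, the latter turned to 0.06. Without FVB week 8 replicate 1, its lowest FVB library, the all-weeks value was -0.29 (edgeR adjusted p = 0.00572), and without PyMT week 10 replicate 3 it was -0.26 (0.0484).

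Dnmt3b (ENSMUSG00000027478) lies on the plus strand of chromosome 2 at 153475186 to 153513466 (mm9) and was the lowest of the methyltransferases. At week 6 its normalized counts were 71.9, 176 and 114 in FVB and 161, 142 and 87.9 in PyMT, and at week 8 they were 55.5, 174 and 107 in FVB and 150, 39.4 and 238 in PyMT. The genotypes were mixed at these weeks. At week 10 FVB had 71.9, 122 and 0 and PyMT had 237, 176 and 128, and at week 12 FVB had 78.0, 59.2 and 62.3 and PyMT had 192, 121 and 157. The PyMT libraries lay above the FVB libraries at both later weeks. The 0 was read in FVB week 10 replicate 3, where low counts came in packets of 19, so a single packet would have lifted it. The week 12 difference was 2.43-fold (log2 1.28, SE 0.34, 95% confidence interval 0.51 to 2.06, edgeR adjusted p = 0.0244). The log2 difference was 1.51 at week 10 (SE 1.13, edgeR adjusted p = 0.427) and 0.80 over all weeks (SE 0.40, edgeR adjusted p = 0.0996), and without the 2 libraries with the most zeros, FVB week 10 replicate 3 and PyMT week 8 replicate 2, the all-weeks value was 0.76 with edgeR adjusted p = 0.00904. The week 12 call was lost without FVB replicate 3 (edgeR adjusted p = 0.0758), PyMT replicate 1 (0.0683) or PyMT replicate 3 (0.0793), and at 0.309 in a fit of all 24 libraries.

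None of the 3 TET genes passed the edgeR test at any week or over all weeks. Tet1 (ENSMUSG00000047146, chromosome 10) had normalized counts of 210, 562 and 396 in FVB and 244, 333 and 197 in PyMT at week 6. At week 12 it had 184, 377 and 213 in FVB and 483, 470 and 366 in PyMT. The groups overlapped at every week, and the side on which PyMT stood changed: from the earliest to the latest week its log2 difference was -0.61, 0.15, 0.78 and 0.81 (SE 0.37, 0.44, 0.35 and 0.30, edgeR adjusted p = 0.345, 0.863, 0.18 and 0.074). Tet1 at week 12 was called in 4 of 16 alternatives. Without FVB week 12 replicate 2, the library that overlapped PyMT, the week 12 value was 1.15 (edgeR adjusted p = 0.00796), and without FVB week 10 replicate 2 the week 10 value was 1.23 (0.0306). Tet2 (ENSMUSG00000040943, chromosome 3) had a lowest, median and highest normalized count of 679, 990 and 1301 in FVB and of 781, 1111 and 1270 in PyMT. Tet3 (ENSMUSG00000034832, chromosome 6) had 944, 1376 and 1734 in FVB and 1132, 1590 and 1725 in PyMT. The all-weeks log2 differences were 0.28 for Tet1 (95% confidence interval -0.19 to 0.74), 0.17 for Tet2 (-0.05 to 0.39) and 0.18 for Tet3 (-0.03 to 0.39), with edgeR adjusted p = 0.327, 0.185 and 0.147, so that for Tet2 and Tet3 a rise above 1.31-fold lay outside the interval. Scaled by library size alone, Tet2 and Tet3 stood at 0.45 each (edgeR adjusted p = 0.00858 and 0.00567), beside a median of 0.26 for all genes.

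Mbd2 (ENSMUSG00000024513, chromosome 18), the reader, passed the test at no week. Its lowest, median and highest normalized counts were 422, 552 and 702 in FVB and 433, 600 and 1045 in PyMT. The value of 1045 came from PyMT week 8 replicate 2, and without it the next PyMT library stood at 645. The all-weeks log2 difference was 0.10 (95% confidence interval -0.12 to 0.32, edgeR adjusted p = 0.448), and 0.39 (0.0113) scaled by library size alone. Its 8 group means ran from 506 (FVB week 6) to 731 (PyMT week 8), and of the 7 neighboring pairs in that order 1, PyMT week 12 and FVB week 8, did not overlap.

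Counted by week over the 9 genes, 4 were called higher at week 12 (Dnmt1, Uhrf1, Hells and Dnmt3b) against 12.5% of all genes, and none lower against 15.3%. At week 10, 1 was higher (Dnmt1) against 6.27%, and none lower against 9.91%. At week 8, 2 were higher (Uhrf1 and Hells) against 4.34%, and none lower against 6.86%. At week 6 none was called, against 4.82% of all genes higher and 7.06% lower. At week 6, 2 of the genes (Dnmt1 and Dnmt3a) had an unadjusted edgeR p under 0.05, against 26.7% of all genes, DESeq2 called 1 and voom 2. Every call had a fold change above 2. The weekly calls of all genes moved with the setting (1772 at week 6, between 875 and 2836, and 4143 at week 12, between 2571 and 5056). The median log2 fold change of the 3 maintenance genes was 1.31 over all weeks and 1.78 at week 12, beside -0.03 and 0.00 over all genes tested.

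**Figure D2:**
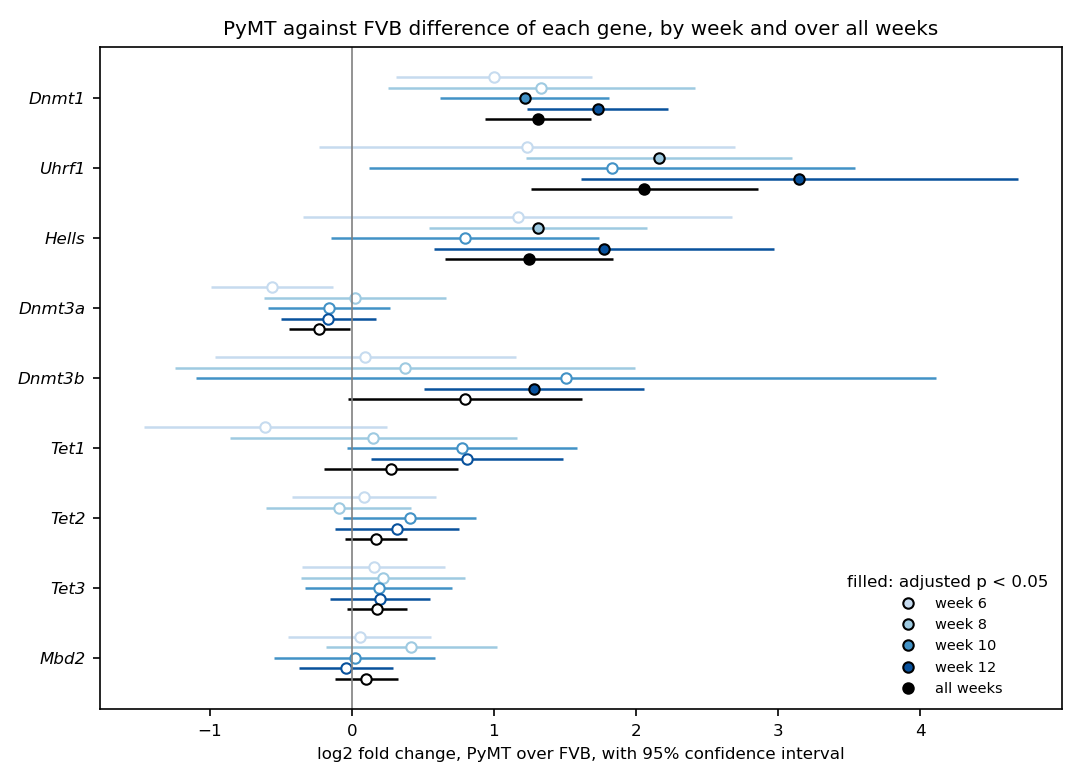
Log2 fold change of PyMT over FVB (horizontal axis) with its 95% confidence interval for each of the 9 genes, at weeks 6, 8, 10 and 12 (3 against 3 libraries, light to dark blue) and over all weeks (12 against 12, black). Filled points passed an edgeR adjusted p under 0.05: Dnmt1, Uhrf1 and Hells over all weeks, and 7 of the 36 weekly values.

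Whether the PyMT against FVB difference changed with the weeks was tested by the genotype by week terms of 1 edgeR fit of the 8 groups. The log2 difference at week 12 minus that at week 6 was 0.71 for Dnmt1, 1.90 for Uhrf1, 0.59 for Hells, 1.16 for Dnmt3b and 1.41 for Tet1, and no gene of the 9 passed (edgeR adjusted p = 1 for each, and 0 of 9 with an unadjusted p under 0.05). By the same edgeR test 0 of 14918 genes passed and 494 (3.31%) had an unadjusted p under 0.05, and the likelihood ratio tests of DESeq2 and edgeR called 18 and 26 genes, none of the 9 among them. A weekly call therefore does not show that one week differed from another.

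Within a genotype, week 12 against week 6 gave no call among the 9 genes and none among all genes in edgeR (1004 genes or 6.73% in PyMT and 625 or 4.19% in FVB had an unadjusted p under 0.05, and DESeq2 called 114 and 21). In PyMT the log2 values were -0.07 for Dnmt1, -0.43 for Uhrf1, -0.74 for Hells and 0.78 for Tet1 (edgeR adjusted p = 0.999, 0.992, 0.928 and 0.798). In FVB they were -0.78 for Dnmt1, -2.33 for Uhrf1 and -1.33 for Hells (edgeR adjusted p = 1 for each, and these were the 3 of the 9 genes with an unadjusted p under 0.05). By week, the FVB means of Uhrf1 were 422 ± 346, 226 ± 112, 229 ± 227 and 85.9 ± 89.5 (SD, n = 3 each), with an SD above the mean at week 12. The PyMT means were 994 ± 199, 1002 ± 206, 792 ± 177 and 736 ± 280 (SD, n = 3 each) in the same order. In the order of the 8 group means, neighboring groups of Uhrf1 overlapped in all 7 pairs, and those of Dnmt1 were apart only between PyMT week 10 (2670 ± 356) and FVB week 6 (1420 ± 562; SD, n = 3 each).

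The share of Dnmt1 among the methyltransferases was higher in PyMT. The shares were not tested, and they move with the level of Dnmt1 itself. Of the summed normalized counts per kilobase of Dnmt1, Dnmt3a and Dnmt3b, Dnmt1 made up 68.3% ± 6.49 (SD, n = 12) in FVB, between 58.9% and 76.7%, and 84.8% ± 2.02 (SD, n = 12) in PyMT, between 81.3% and 87.9%, without overlap. Dnmt3a made up 26.0% ± 6.88 in FVB and 10.5% ± 2.59 in PyMT, and Dnmt3b 5.64% ± 2.33 and 4.73% ± 1.46 (SD, n = 12 each). In the TET family the mean shares in FVB and PyMT were 8.12% and 8.80% for Tet1, 42.6% and 42.1% for Tet2, and 49.3% and 49.1% for Tet3. The log2 ratio of Dnmt3b to Dnmt3a, taken from log2 CPM in each library, was -4.37 ± 2.28 in FVB and -2.90 ± 0.83 in PyMT (SD, n = 12), a difference of 1.47 (two-sided exact permutation within weeks, 160000 regroupings, adjusted p = 0.0178 over 5 ratios). It was 3.64 at week 10, where the FVB library with the count of 0 enters, and 0.72, 0.08 and 1.43 at weeks 6, 8 and 12. Without replicates 3 of all groups, among them that library, it was 0.77 (exact permutation adjusted p = 0.188), and without replicates 1 it was 1.40 (0.263).

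Uhrf1 also stood higher beside the mean of the 6 Mcm genes, the only genes of replication it was set against in a test. The Mcm genes encode the replicative helicase, and the log2 ratio of a gene to the mean of the 6 Mcm genes in the same library sets it against these genes only. Over all weeks the log2 difference was 2.06 for Uhrf1, with medians of 1.49 for the 6 Mcm genes and 2.35 for the 12 proliferation genes. Single Mcm genes ran from 0.64 to 1.93 over all weeks. The highest Mcm gene stood at 1.59, 2.33, 1.89 and 2.59 at weeks 6, 8, 10 and 12. Uhrf1 stood at 1.23, 2.16, 1.83 and 3.15, so it was above every Mcm gene only at week 12. A ratio of Uhrf1 to the proliferation genes was not tested. For Uhrf1 this ratio was -0.41 ± 0.76 in FVB and 0.48 ± 0.22 in PyMT (SD, n = 12), a difference of 0.89 (exact permutation within weeks, adjusted p = 0.00056, where the smallest unadjusted p is 1.25e-05), with PyMT higher at 4 of 4 weeks by 0.36, 0.45, 1.08 and 1.69. For Dnmt1 the same difference was -0.23 (exact permutation adjusted p = 0.193) and for Hells -0.11 (0.572). Without replicates 2 the Dnmt1 value was -0.37 with an exact permutation adjusted p = 0.0347. The ratio of Uhrf1 to Dnmt1 was -2.81 ± 1.12 in FVB and -1.68 ± 0.36 in PyMT (SD, n = 12), a difference of 1.12 (exact permutation adjusted p = 0.00234), which was 1.01 (0.054) without replicates 1 and 0.86 (0.0887) without replicates 3.

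**Figure D3:**
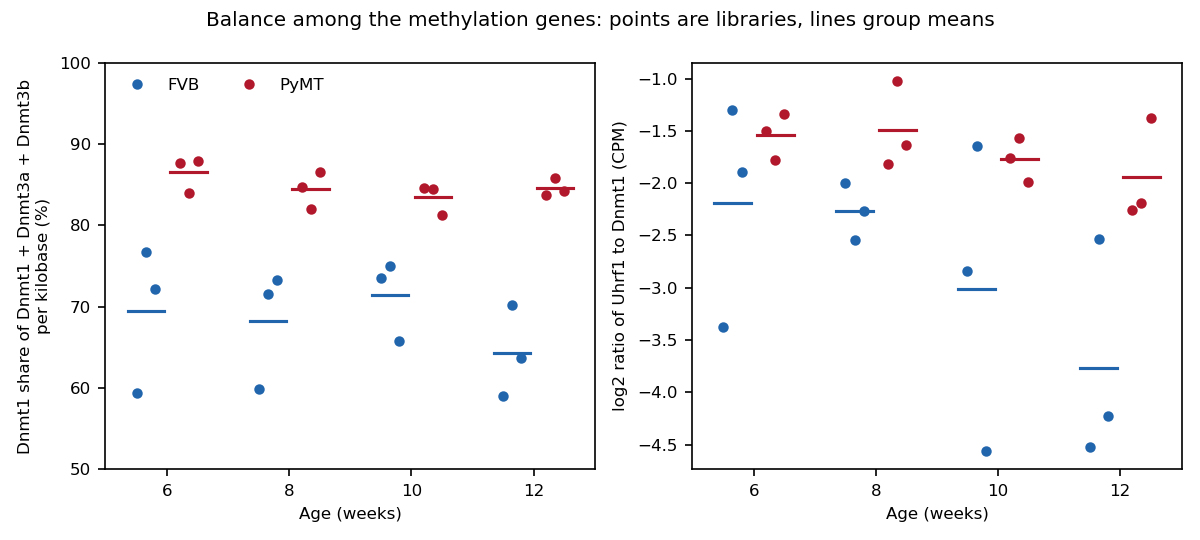
Left, share of Dnmt1 in the summed normalized counts per kilobase of Dnmt1, Dnmt3a and Dnmt3b (percent, axis from 50 to 100); right, log2 ratio of Uhrf1 to Dnmt1 from CPM; both against age in weeks. Points are libraries (FVB blue, PyMT red) and lines are means of 3: the Dnmt1 shares of PyMT (81.3% to 87.9%) lie above those of FVB (58.9% to 76.7%), and the ratio is spread widely in FVB.

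The FVB glands differed much among themselves in the genes of maintenance, and these moved with proliferation genes. The coefficient of variation in FVB was 93.3% for Uhrf1, 66.9% for Hells and 39.5% for Dnmt1, against 25.5%, 25.3% and 13.3% in PyMT (n = 12 each). The 12 proliferation genes (among them Mki67 and Top2a) summed to between 617 and 9128 in FVB and between 8785 and 16910 in PyMT. The highest FVB sum was in week 6 replicate 2, which also had the highest FVB value of Dnmt1, Uhrf1, Hells, Dnmt3b and Tet1 and the lowest FVB sum of adipocyte markers (54630). The lowest sum was in FVB week 10 replicate 3, the library with Dnmt3b at 0, which also had the highest FVB sum of skeletal muscle markers (538500) and the lowest of luminal (4066) and basal (4538) markers. Within FVB, log2 CPM correlated with the mean of the proliferation genes for Dnmt1 (Pearson 0.879, permutation adjusted p = 0.00153; Spearman 0.909, 0.00198; n = 12), Uhrf1 (0.828, 0.00441; 0.867, 0.003) and Dnmt3b (0.708, 0.00198; 0.72, 0.0232). For Hells in FVB, Pearson's r was 0.568 (permutation adjusted p = 0.113) and Spearman's rho 0.734 (0.0225). Without the 2 libraries farthest from the median, FVB week 10 replicate 3 and FVB week 8 replicate 1, r was 0.921, 0.931, 0.663 and 0.83 in the same order of genes, and with week means removed it was 0.956, 0.908, 0.688 and 0.729.

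Within PyMT the relation passed for Uhrf1 (Pearson 0.788, permutation adjusted p = 0.00804; Spearman 0.818, 0.00824; n = 12) and Hells (0.807, 0.00626; 0.804, 0.00824), with r of 0.693 and 0.73 without the 2 farthest libraries and 0.78 and 0.611 with week means removed. For Dnmt1 it was 0.527 (permutation adjusted p = 0.122). Tet1 went the other way in PyMT, with r of -0.705 (permutation adjusted p = 0.0275) and rho of -0.769 (0.0154), which was -0.47 without the 2 farthest libraries and -0.386 with week means removed, so the relation rested in part on those libraries and on differences between weeks. In FVB the Tet1 levels fell into 2 separate sets of 6 libraries, with log2 CPM of 3.92 to 4.66 and of 5.46 to 6.06, and r was 0.666 and 0.781 within them. The same sets were apart in the mean log2 CPM of the proliferation genes, at -0.87 to 2.75 and 3.92 to 5.69. In all, 18 relations were computed, 9 in either genotype, and 4 and 3 passed by Pearson's r in FVB and PyMT (the first with Tet1). That a relation differed between the genotypes was not tested.

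**Figure D4:**
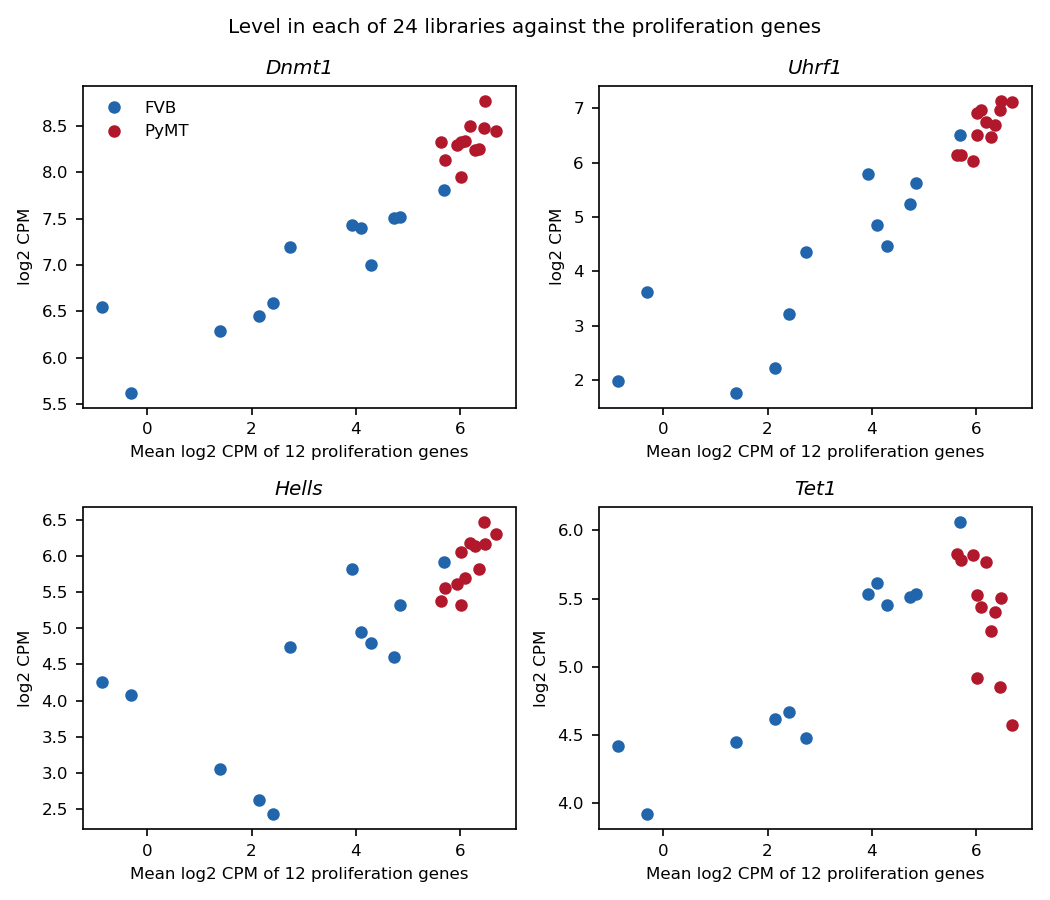
Log2 CPM (vertical axis) of Dnmt1, Uhrf1, Hells and Tet1 in each of the 24 libraries against the mean log2 CPM of 12 proliferation genes (horizontal axis), FVB in blue and PyMT in red. FVB libraries spread widely along the axis, with Dnmt1 and Uhrf1 rising along it (r of 0.879 and 0.828), the PyMT libraries crowd at the upper end, and within PyMT Tet1 lies lower where the proliferation genes lie higher (r of -0.705).

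The genes most like each of the 9 in pattern were the 3 with the highest Pearson correlation of log2 CPM over the 24 libraries among 14918 genes, given as a description, since the libraries share genotype and make-up. For Uhrf1 they were Mcm6 (r = 0.969), Ckap2l (0.968) and Ttk (0.966), and for Hells Fanci (0.933), Clspn (0.931) and Ttk (0.931). Mcm6 is a subunit of the replicative helicase, Ttk a kinase of the spindle checkpoint, and Clspn and Fanci act in the response to stalled forks and crosslinks. For Dnmt1 they were Hist2h2bb (0.972), Atad2 (0.968) and Rpl7 (0.965), of which the histone and ribosomal protein genes have close copies or pseudogenes in the genome that reads may be shared with. Dnmt3b, the gene with the 0, was most like Zfp626 (0.956), Zfp202 (0.954) and Me2 (0.951). The other genes had looser neighbors, with a highest r of 0.827 for Tet1 (Col16a1), 0.831 for Tet3 (Arnt2), 0.80 for Mbd2 (Znfx1), 0.791 for Dnmt3a (Calcoco1) and 0.756 for Tet2 (Taf15). Among the 9 themselves, Uhrf1 and Hells had r = 0.906 and 0.858 with group means removed, Dnmt1 and Uhrf1 0.91 and 0.773, and Dnmt1 and Tet1 0.657 and 0.862.

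Beside the 9 genes, the wider pathway was read from lists. Of 12 tested other partners of maintenance and new methylation, 4 were higher at week 12 and none lower, with a median log2 difference of 0.47. These were Lig1, the ligase that joins Okazaki fragments (log2 1.71, SE 0.32, edgeR adjusted p = 0.00575), Pcna, the sliding clamp (0.98, SE 0.28, 0.0321), Cdca7, which recruits HELLS (1.26, SE 0.38, 0.0389), and Trim28, the corepressor of KRAB zinc fingers (0.86, SE 0.21, 0.0173). Over all weeks 7 of 12 were higher and none lower. Among all genes tested, 12.5% were called higher and 15.3% lower at week 12, and 23.6% and 27.5% over all weeks. The Mcm genes were higher in 4 of 6 at week 12 and in 6 of 6 over all weeks (median log2 1.49), and the proliferation genes in 10 of 12 and 12 of 12 (median log2 2.35 over all weeks), with Mki67 at 2.33 and Top2a at 2.36 over all weeks (edgeR adjusted p = 2.39e-05 and 5.65e-05). Of 3 E2F activators, E2f3 was higher at week 12 (log2 0.81, SE 0.24, edgeR adjusted p = 0.0365) and E2f2 at week 6 (1.90, SE 0.46, 0.0345) and over all weeks (1.13, SE 0.29, 0.00229). None of the 9 genes was called at week 6 by the same test. Dnmt1 then had a log2 difference of 1.00 (edgeR adjusted p = 0.0688) and was called in 6 of 16 alternatives.

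Of 12 other readers of methylated or free CpG, 3 were higher at week 12 and none lower, with a median log2 difference of 0.02: Zbtb33, which encodes Kaiso (log2 1.24, SE 0.20, edgeR adjusted p = 0.00311), Kdm2b (0.77, SE 0.20, 0.0218) and Cxxc1 (0.65, SE 0.17, 0.0229). Over all weeks 4 were higher and 3 lower. For each list of this paragraph the shares over all genes were 12.5% higher and 15.3% lower at week 12. Over all weeks they were 23.6% and 27.5%. None of the 11 NuRD genes, partners of Mbd2, passed at week 12 (edgeR adjusted p of 0.0761 for Chd3, the smallest). An unadjusted edgeR p under 0.05 was found for 3, Chd3, Rbbp7 and Gatad2b, against 40% of all genes. Over all weeks 4 NuRD genes were higher and 2 lower, with values from -0.54 (Gatad2b) to 0.51 (Rbbp7). Of 14 genes that act after or beside the TET enzymes, 2 were higher and 3 lower at week 12, with a median of -0.02. Higher were Apex1, the endonuclease of base excision repair (log2 1.04, SE 0.20, edgeR adjusted p = 0.00618), and Parp1 (0.89, SE 0.19, 0.011). Idh1, whose product 2-oxoglutarate is the cosubstrate of the TET enzymes, was lower (-1.27, SE 0.18, 0.00165), as was Gadd45g (-2.39, SE 0.55, 0.0144).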

How the data were processed

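Total RNA of 24 snap-frozen mammary samples was depleted of ribosomal RNA and sequenced from directional libraries. The authors trimmed adapters, aligned reads to mm9 with GSNAP and used HTSeq to count reads in Ensembl genes. The deposited table holds these raw counts (the strand setting of the counting was not given in the sources used here). Samples were grouped by the genotype and week in their titles. The 9 genes, the gene lists and the tests were chosen with earlier results of these data known. Genes named besides the 9 were the 3 most like each of them, up to 4 of each list by smallest p at week 12, and Mki67 and Top2a. Names of list genes called over all weeks outside that rule were chosen after their values were seen.

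The 14918 genes that reached a CPM of 1 in 12 or more of the 24 samples were tested with the quasi-likelihood test of edgeR 4.0.16 in R 4.3.3, with TMM scaling and Benjamini-Hochberg adjustment over all of them, for each week, over all weeks with week as a term, and for genotype by week in 1 fit of 8 groups. A call was an adjusted p under 0.05. Normalized counts were counts over DESeq2 1.42.0 size factors, and log2 CPM had a prior count of 0.5. Ratios were tested by exact permutation within weeks, and correlations by 100000 permutations. DESeq2, voom in limma 3.58.1, other scalings and filters, and fits leaving out libraries were the alternatives. Gene coordinates came from GENCODE M1 on mm9 and promoters from RefSeq on GRCm38.p6. The test was tried on simulated data. No 2 replicates agreed within sampling noise (chi-square per gene of 19.3 to 244 over 24 pairs).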

Additional observations from a re-analysis of the deposited data

How the results depend on the processing

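The calls of Dnmt1, Uhrf1 and Hells over all weeks held in 34 of 34 alternatives, those of Dnmt1 and Uhrf1 at week 12 in 16 of 16, and those of Hells and Dnmt3b at week 12 in 11 of 16, and no called result changed direction. The number of the 9 genes called moved as follows. At week 6 it was 0, and 1 (Dnmt1) with DESeq2, the edgeR likelihood ratio test, no filter on low counts, or counts divided by the packet size, and 2 (Dnmt1 and Dnmt3a) with voom. At week 8 it was 2, and 3 where the same kinds of setting added Dnmt1. At week 10 it was 1, and 2 with DESeq2 or packet-divided counts, which added Uhrf1, and 3 with voom. At week 12 it was 4, and 5 with library size only, packet-divided counts or voom, which added Tet1, and 3 in a fit of all 24 libraries. Over all weeks it was 3, and 7 with library size only, 5 with packet-divided counts, 5 with voom and 5 without the 2 libraries with the most zeros, an alternative chosen after seeing the data. Leaving out 1 library gave 0 to 1 calls at week 6, 0 to 2 at week 8, 0 to 4 at week 10 (4 without FVB replicate 2), 2 to 5 at week 12 and 3 to 4 over all weeks. Leaving out the replicates of 1 number gave log2 ratio differences of 0.77 to 2.24 for Dnmt3b to Dnmt3a, 0.86 to 1.502 for Uhrf1 to Dnmt1, 0.76 to 1.13 for Uhrf1, -0.37 to -0.10 for Dnmt1 and -0.30 to 0.05 for Hells, each of the last 3 to the Mcm genes. With library size only, 8 of the 9 genes correlated with the proliferation genes in FVB, against 4. The cause of these moves was not tested. With the replicate number as a block, 0, 1, 2 and 3 genes were called at weeks 6, 8, 10 and 12 and 3 over all weeks, with Hells lost at week 8 (edgeR adjusted p = 0.0887) and Dnmt3b at week 12 (0.0502). Same-numbered samples correlated at -0.026 to 0.184 in 12 pairs, 4 of them over 0.1, and differently numbered samples at -0.118 to 0.092 in 24 pairs, 0 of them over 0.1. Of the 24 samples 13 correlated best with their own number. The labels tie the numbers to no shared batch or day, so the fit without the block was kept and whether the numbers pair the samples is not settled. Over all genes, calls ranged from 513 to 3435 at week 8 (1672 as reported) and from 1284 to 3644 at week 10 (2414). With library size only, 55.7%, 57.4%, 52.7%, 63.6% and 65.5% of calls were higher at weeks 6, 8, 10 and 12 and over all weeks, against 40.6%, 38.8%, 38.7%, 45.1% and 46.3%. Packets of up to 25 counts limit what can be read from Dnmt3b and other low genes.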

Other observations

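The methyl donor cycle makes the S-adenosylmethionine that the methyltransferases use. Of its 12 genes tested, 3 were higher at week 12, where 12.5% of all genes were, and 1 lower, where 15.3% were, with a median log2 difference of 0.53. Over all weeks 5 were higher and 2 lower, beside 23.6% and 27.5% of all genes. Shmt1 and Shmt2, the serine hydroxymethyltransferases of cytosol and mitochondria, were higher at week 12 by log2 1.96 (SE 0.29, edgeR adjusted p = 0.00191) and 1.11 (SE 0.20, 0.00526), and Mthfd1, which interconverts one-carbon folates, by 0.96 (SE 0.19, 0.00696). Ahcyl2, a relative of S-adenosylhomocysteine hydrolase, was lower (-1.83, SE 0.26, edgeR adjusted p = 0.00159).

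Of 10 germline genes known to be held silent by promoter methylation, 2 were abundant enough to be tested. None passed the edgeR test at week 12, where Sycp3 had an adjusted p of 0.0826 and was the only one with an unadjusted p under 0.05, and over all weeks Sycp3, a gene of the meiotic synaptonemal complex, was lower in PyMT (log2 -3.18, SE 0.80, edgeR adjusted p = 0.00187). Sycp1, the other tested gene, went the other way over all weeks (log2 1.36) and was not called. Of all genes tested, 27.5% were called lower and 23.6% higher over all weeks. The 10 genes together summed to between 31.6 and 131.5 normalized counts in FVB and to at most 63.9 in PyMT. Low counts came in packets of 8 to 25 in 13 libraries, which limits what can be read from sums this low. Of the 10, 4 had no count in any FVB library and 2 had none in any PyMT library.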
